A study of Rattus norvegicus with 20 samples.

Results

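The enzymes that turn membrane arachidonic acid into prostaglandins and leukotrienes were followed in rat dorsal root ganglia (DRG), the clusters of sensory neuron cell bodies beside the spinal cord. The set was defined by name and held 10 genes of the 39747 in the count table: the phospholipase Pla2g4a, the cyclooxygenases Ptgs1 and Ptgs2, the prostaglandin synthases Ptges, Ptges3 and Ptgds, the lipoxygenases Alox5 and Alox15, the 5-lipoxygenase partner Alox5ap, and the leukotriene C4 synthase Ltc4s. All 10 names were found in the table.

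The study fed wild-type, young adult female Sprague-Dawley rats a soy oil diet (SOD) or a fish oil diet rich in omega-3 fatty acids (FOD) for 4 weeks, then either tied 4 loose ligatures around the left sciatic nerve (chronic constriction injury, CCI) or exposed the nerve without ligatures (sham, labelled CT). The diets were isocaloric and were continued after surgery. The paper's results place DRG collection at 1 week after CCI, and its methods keep the diets for 4 weeks after surgery. Bulk poly-A RNA sequencing gave 20 libraries from 14 rats: left DRG of 4 SOD-CT, 3 SOD-CCI, 4 FOD-CCI and 3 FOD-CT rats, and the uninjured contralateral DRG of 3 SOD-CCI and 3 FOD-CCI rats. A whole ganglion mixes neurons, glia, sheath cells, vessels and immune cells.

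Eicosanoid synthesis starts when cytosolic phospholipase A2, the product of Pla2g4a, frees arachidonic acid from membranes. Cyclooxygenases convert it to prostaglandin H2, which terminal synthases turn into prostaglandin E2 (Ptges, Ptges3) or prostaglandin D2 (Ptgds), while 5-lipoxygenase (Alox5), presented with its substrate by the membrane protein encoded by Alox5ap, starts the leukotrienes that Ltc4s completes. Prostaglandin E2 sensitizes nociceptors, and the long-chain omega-3 fatty acids of fish oil compete with arachidonic acid for the same enzymes.

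Library totals ran from 22547190 to 54437581 counts, and the 8 sensory neuron markers were high in 19 libraries. In the library labelled FOD contralateral 1 their mean was 5.86 as mean log2 CPM (read counts relative to the scaled library total), against 9.20 to 10.7 in the others, and Scn10a was at 0 there. Spinal cord glia markers stood at 6.96 to 7.42 in FOD-CT 1, FOD-CCI 1 and FOD contralateral 1 and at 2.11 or less elsewhere. Muscle markers reached 13.5 in SOD-CT 1 and 10.9 in FOD-CT 2. Their group means were 5.96 in SOD-CT and 7.54 in FOD-CT, against -0.065 in SOD-CCI and -0.36 in FOD-CCI. Nerve injury genes checked the labels. Atf3, a transcription factor switched on in injured sensory neurons, stood between 202 and 514 CPM in 6 of the 7 CCI libraries and between 12.5 and 48.5 in the sham libraries. In the library labelled FOD-CCI 1 it was 3.24 CPM, the galanin gene Gal was 8.53 CPM, and Sprr1a had no count. That library therefore goes against its label, and values without it stand beside the main comparisons that rest on it. Neutrophil and red cell markers were highest in FOD-CCI 2 and SOD-CT 4, although the rats had been perfused to clear blood.

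Promoters of 8 of the 10 genes were in the RefSeq promoter table (GRCr8, 250 bases before to 50 after the start), and Alox15 and Alox5ap were not. The 4 shown are the cyclooxygenase pair and the prostaglandin E2 synthase pair, each of which joins a constitutive and an inducible enzyme. Capitals mark matches to 7 motifs, each searched on both strands. The Ptgs1 promoter lies at chr3:39981169-39981468 (+), that of Ptgs2 at chr13:64713813-64714112 (+), that of Ptges at chr3:34586938-34587237 (-) and that of Ptges3 at chr7:1075059-1075358 (+).
Ptgs1: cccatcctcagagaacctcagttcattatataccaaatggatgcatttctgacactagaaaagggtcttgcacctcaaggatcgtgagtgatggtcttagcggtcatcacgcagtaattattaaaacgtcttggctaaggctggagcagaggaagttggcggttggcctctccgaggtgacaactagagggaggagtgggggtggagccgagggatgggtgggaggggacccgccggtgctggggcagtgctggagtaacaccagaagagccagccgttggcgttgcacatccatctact
Ptgs2: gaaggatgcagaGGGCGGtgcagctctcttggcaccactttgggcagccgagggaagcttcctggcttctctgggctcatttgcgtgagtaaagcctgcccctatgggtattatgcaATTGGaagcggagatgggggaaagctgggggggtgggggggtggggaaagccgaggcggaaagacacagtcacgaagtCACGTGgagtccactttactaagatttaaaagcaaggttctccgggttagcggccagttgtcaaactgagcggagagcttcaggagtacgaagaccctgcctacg
Ptges: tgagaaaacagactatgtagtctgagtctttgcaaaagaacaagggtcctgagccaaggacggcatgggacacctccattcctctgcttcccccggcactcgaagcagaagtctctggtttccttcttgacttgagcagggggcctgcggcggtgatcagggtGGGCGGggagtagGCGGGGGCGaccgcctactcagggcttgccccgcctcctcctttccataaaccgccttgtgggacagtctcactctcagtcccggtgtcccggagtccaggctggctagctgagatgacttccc
Ptges3: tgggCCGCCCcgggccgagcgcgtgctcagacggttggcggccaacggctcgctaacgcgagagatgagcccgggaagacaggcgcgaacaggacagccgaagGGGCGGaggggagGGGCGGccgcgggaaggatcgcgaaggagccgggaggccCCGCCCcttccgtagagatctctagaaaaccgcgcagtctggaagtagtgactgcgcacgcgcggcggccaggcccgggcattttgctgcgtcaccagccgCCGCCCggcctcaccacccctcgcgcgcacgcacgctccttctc
The GC box, GGGCGG, was found in 5 of the 8 windows of this set and in 33.1% of the 33469 promoters of the table. Ptges3 held 5 copies in a window of 71.7% G and C, against a median of 51.7% over all promoters, Ptgs2 and Ptges held 1 each, and the 2 copies in the Ptgds window share bases. The CCAAT box was in 2 of the 8, among them Ptgs2 on the minus strand, and in 37.5% of all promoters. The E box, CACGTG, lay at -55 to -50 from the start of Ptgs2 and is in 6.42% of all promoters. The EGR motif, GCGNGGGCG, lay at -74 to -66 in Ptges and is in 4.98% of all. The TATA box, TATAAA, was in 1 of the 8 windows and in 14.2% of all. No window of the set held the AP-1 motif TGANTCA, present in 7.33% of all promoters. None held the cyclic AMP motif TGACGTCA, present in 1.83%. The Ptgs1 window held none of the 7.

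Per transcript length, the synthases of prostaglandin D2 and the constitutive synthase of prostaglandin E2 were far above the other 8. The median over the 20 libraries was 406 FPKM for Ptgds and 197 FPKM for Ptges3. Alox5ap followed at 5.64, Ptges at 3.25, Ptgs1 at 2.25, Ltc4s at 1.73 and Pla2g4a at 1.25 FPKM, and Alox5 and Alox15 were at 0.445 and 0.320. Ptgs2 had a median of 0. The ranges of Ptgds and Ptges3 overlapped. The lowest library of Ptges3 (123 FPKM) lay above the highest of every gene from Alox5ap (30.8) down, whereas the ranges of the neighbours from Alox5ap to Alox15 overlapped. Few counts stood behind 4 of the genes: over all 20 libraries Ptgs2 had 161 counts and 11 zeros, Ltc4s 635 counts and 4 zeros, Alox5 1059 counts and 2 zeros, and Alox15 1712 counts and 6 zeros. These 4 did not reach 10 counts in 90% of the libraries and enter no fit. The other 6 were tested in all 11 comparisons.

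**Figure D1:**
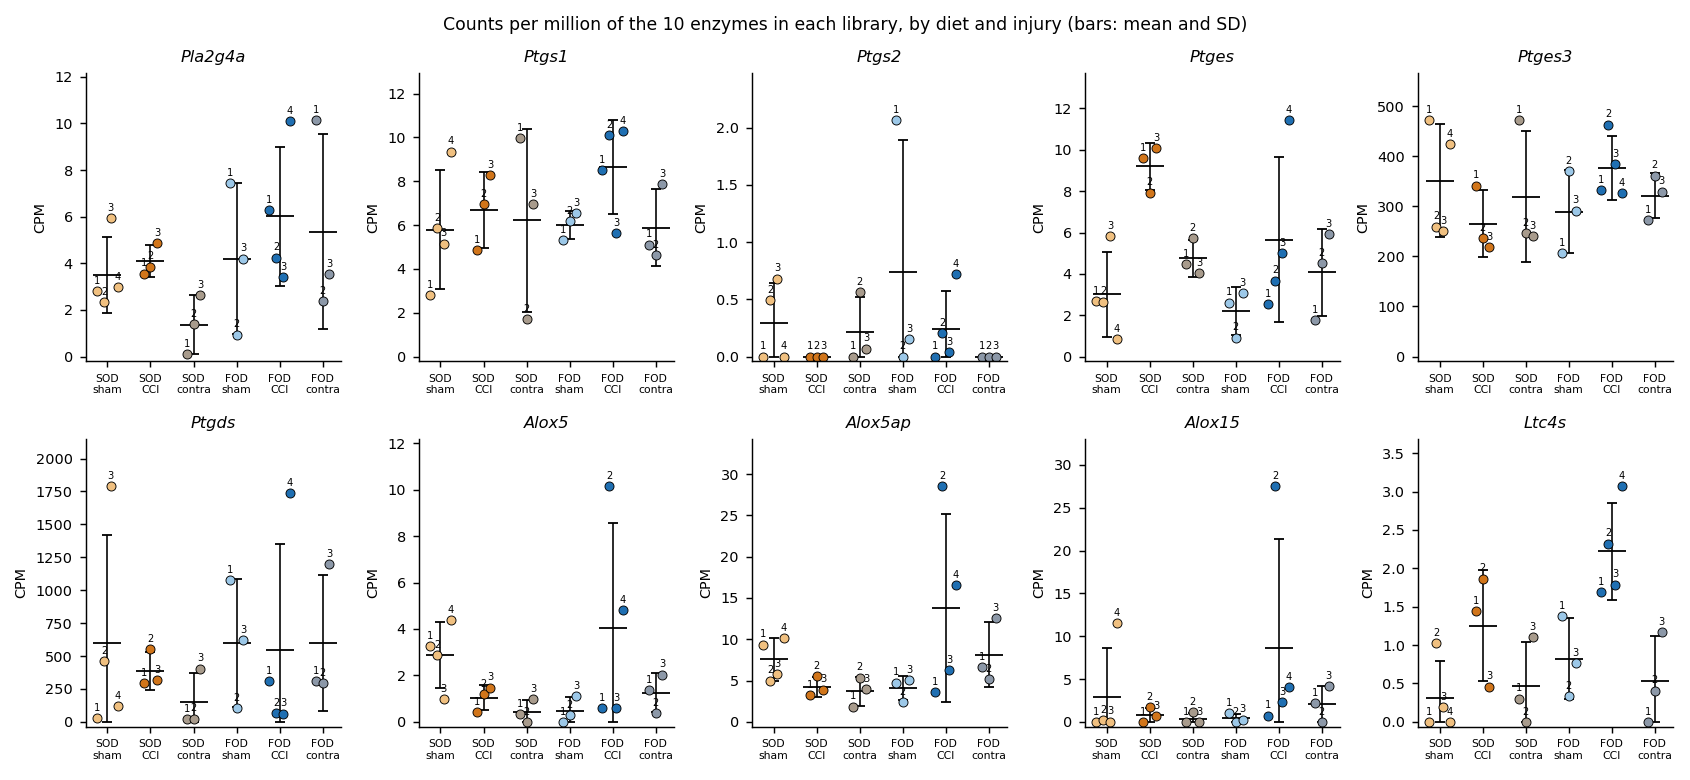
CPM of each of the 10 genes (vertical axis, from 0, on a separate scale in each panel) in every library, with points numbered by replicate and coloured by group; horizontal bars are group means and whiskers 1 SD, cut at 0. Ptges sits above all sham libraries in the 3 SOD-CCI libraries, Alox5, Alox5ap and Alox15 peak in FOD-CCI 2, Ptgds spans 19.2 to 1793 CPM, and Ptgs2 is at or near 0 almost throughout.

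None of the 6 tested genes was called (edgeR quasi-likelihood test, with thresholds of 0.1 for the adjusted p and 1.2 for the fold change) in any of the 11 comparisons. In the left DRG that held against a background of 0% of 14484 genes called in each of the 4 pairwise comparisons and in the interaction. Before adjustment, 1 of the 6 had a p under 0.05 for CCI against sham on soy oil, where 13.8% of all tested genes did, 1 for CCI against sham on fish oil (4.52% of all genes), 1 for fish oil against soy oil after CCI (5.4%), 0 for fish oil against soy oil in sham rats (3.39%) and 1 for the interaction (5.01%). DESeq2 called none of the 6 in these 5 comparisons either, where it called 4.72%, 0.183%, 0.014%, 0% and 4.32% of the genes to which it gave an adjusted p. It gave none to 2 of the 6 (Ptges and Pla2g4a) for CCI against sham on fish oil, or to 4 of the 6 in the interaction, Ptges and Alox5ap among them. The median log2 fold change of the 6 was -0.09 for CCI against sham on soy oil, beside -0.0090 over all genes, and 0.53 on fish oil, beside 0.0065. Between the 2 sides of a rat, 2 of the 6 had a p under 0.05 before adjustment on soy oil (8.48% of all genes) and 0 on fish oil (6.96%), where 0.0137% of genes were called. For contralateral against sham DRG it was 0 on soy oil (7.06%) and 0 on fish oil (1.71%), and for fish oil against soy oil in the contralateral DRG 1 (7.1%). Throughout, fewer cells of a type and less RNA per cell cannot be told apart.

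**Figure D2:**
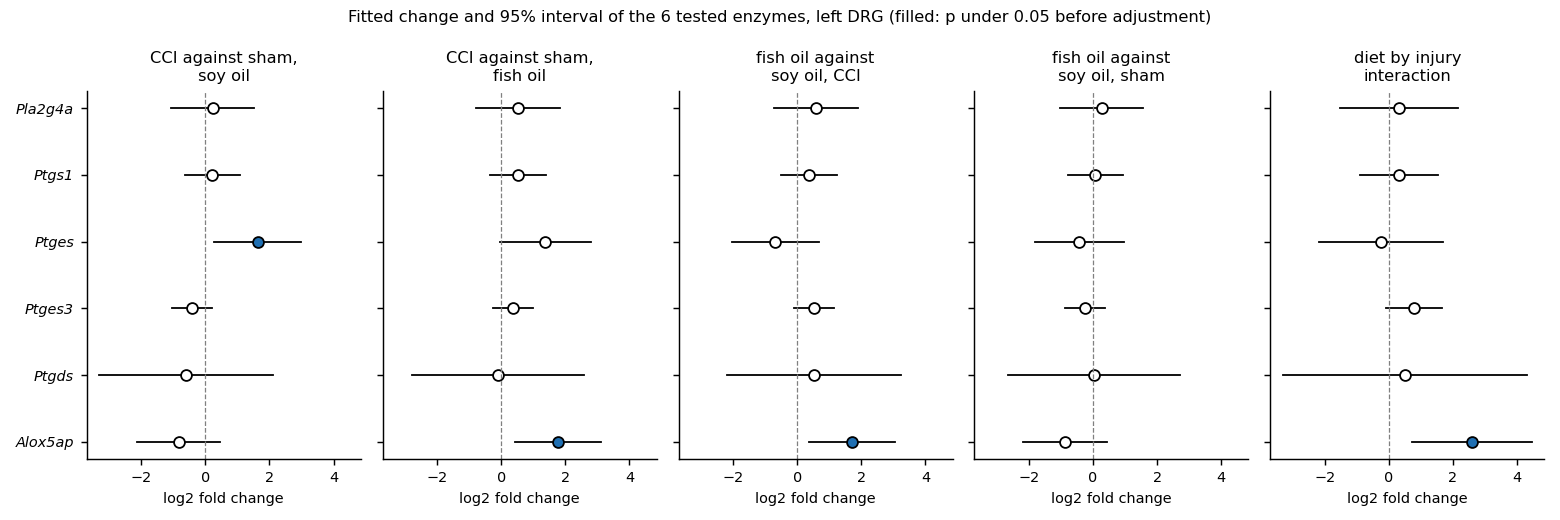
Log2 fold change (horizontal axis) of the 6 tested genes in the 5 comparisons of left DRG, with points at the edgeR estimate and lines over its 95% interval; filled points have a p under 0.05 before adjustment. Ptges is filled for CCI against sham on soy oil (1.63), and Alox5ap for CCI against sham on fish oil (1.76), for fish oil against soy oil after CCI (1.72) and for the interaction (2.59).

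Pla2g4a, the phospholipase at the head of the pathway, had overlapping ranges in the 4 left groups and differed most between the sides of rats on soy oil. Its CPM was 2.80, 2.33, 5.93 and 2.98 in SOD-CT, 3.56, 3.86 and 4.85 in SOD-CCI, 7.45, 0.942 and 4.20 in FOD-CT, and 6.29, 4.24, 3.41 and 10.1 in FOD-CCI. In the contralateral DRG it was 0.113, 1.39 and 2.62 CPM on soy oil and 10.1, 2.37 and 3.55 CPM on fish oil. The left DRG was above the contralateral DRG in 3 of 3 soy oil rats and in 1 of 3 fish oil rats, and 41.2% and 23.8% of all tested genes had 3 rats in 1 direction. The log2 difference on soy oil was 2.16 ± 0.83 (SE, edgeR adjusted p = 0.504), in a comparison where 0.131% of 14549 genes were called. DESeq2 called it (2.16, adjusted p = 0.0851), as it did 3.31% of its genes. SOD contralateral 1, with 3 counts, is the lowest library of all, and without that rat the difference was 1.21. The test of the diet difference in this side effect gave -2.18 ± 1.12 (SE, adjusted p = 0.997), -1.22 without soy oil rat 1, -2.99 without soy oil rat 3 and -1.81 without the rat of the library labelled FOD-CCI 1. Fish oil against soy oil in the contralateral DRG gave 2.04 ± 0.98 (SE, adjusted p = 0.702). Of the 5 libraries highest in Pla2g4a, 3 were among the 5 highest in spinal cord glia markers, FOD contralateral 1, FOD-CT 1 and FOD-CCI 1, and 4 were among the 5 highest in endothelial markers. Without FOD contralateral 1 the diet difference in the contralateral DRG was 1.18. The part of these cells in the result was not tested.

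Ptgs1, the constitutive cyclooxygenase, was present in every library at 1.72 to 9.96 CPM in uninjured and 4.85 to 10.3 CPM in injured ganglia. Values were 2.80, 5.85, 5.15 and 9.35 CPM in SOD-CT and 4.85, 6.94 and 8.29 in SOD-CCI. On fish oil they were 5.30, 6.17 and 6.55 CPM in FOD-CT and 8.49, 10.1, 5.65 and 10.3 in FOD-CCI. The groups overlapped on both diets. In the contralateral DRG it was 9.96, 1.72 and 6.96 CPM on soy oil and 5.10, 4.63 and 7.88 on fish oil. CCI against sham gave a log2 fold change of 0.22 ± 0.40 (SE, 95% interval -0.64 to 1.08) on soy oil and 0.53 ± 0.41 (SE, -0.34 to 1.40) on fish oil, where 3 of the 4 FOD-CCI libraries lay above all FOD-CT libraries. Without the library labelled FOD-CCI 1 the fish oil value was 0.54.

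Ptgs2, the inducible cyclooxygenase, was close to undetected. It had 0 counts in all 3 SOD-CCI libraries, which over their 86277127 counts allows at most 0.0348 CPM, and 0 in all 3 FOD contralateral libraries, which allows at most 0.0404. Elsewhere it had 12 and 21 counts in 2 of the 4 SOD-CT libraries, 17 and 3 in 2 SOD contralateral libraries, 72 and 6 in 2 FOD-CT libraries, and 6, 2 and 22 in 3 FOD-CCI libraries. The single library FOD-CT 1, one of the 3 with spinal cord glia transcripts, held 44.7% of all Ptgs2 counts. An exact two-sided permutation test of log2 CPM gave p = 0.571 for CCI against sham on soy oil and p = 0.743 on fish oil. The smallest p that 4 against 3 libraries allow, 0.0571, was out of reach on soy oil because the libraries at 0 tie. With 0 counts in all 3 SOD-CCI libraries no arrangement gives a lower mean, so that test cannot show a decrease.

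Ptges, the inducible prostaglandin E2 synthase that acts downstream of Ptgs2, was the only enzyme of the set whose SOD-CCI and SOD-CT ranges did not overlap. On soy oil its CPM was 9.60, 7.94 and 10.1 in SOD-CCI and 2.67, 2.66, 5.83 and 0.857 in SOD-CT, so that the lowest injured library exceeded the highest sham library. The ranges of 17.6% of all tested genes were apart in this comparison. The mean was 9.21 ± 1.13 against 3.00 ± 2.07 CPM (SD, n = 3 and 4), and the fitted log2 fold change 1.63 ± 0.64 (SE, 95% interval 0.26 to 3.00) had a p of 0.0232 before adjustment and an adjusted p of 0.314. On fish oil its CPM was 2.54, 3.67, 5.01 and 11.4 in FOD-CCI and 2.61, 0.912 and 3.08 in FOD-CT. The groups overlapped through the library labelled FOD-CCI 1 alone. The log2 fold change was 1.38 ± 0.66 (SE, adjusted p = 1.00), 1.62 ± 0.67 without the library labelled FOD-CCI 1 (adjusted p = 0.419) and 0.75 without FOD-CCI 4, the highest library. Without the library labelled FOD-CCI 1 the ranges were apart, as were those of 17.3% of all genes.

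The diets did not differ detectably in this response of Ptges. Fish oil against soy oil gave -0.68 ± 0.63 after CCI (SE, 95% interval -2.04 to 0.68), and the interaction was -0.25 ± 0.91 (SE, -2.19 to 1.69). Without the library labelled FOD-CCI 1 they were -0.44 and -0.0090. Within rats the left DRG was above the contralateral DRG in 3 of 3 on soy oil, by 2.14, 1.38 and 2.51 times, and in 1 of 3 on fish oil, where the ratios were 1.43, 0.813 and 0.845. Of all tested genes, 41.2% on soy oil and 23.8% on fish oil had 3 rats in 1 direction. The rat with 1.43 is the one whose left library, FOD-CCI 1, lacked the injury genes. The fitted side differences were 0.99 ± 0.44 (SE, adjusted p = 0.592) on soy oil and -0.06 ± 0.44 (SE, adjusted p = 0.983) on fish oil, and the test of their difference gave -1.05 ± 0.62 (SE, adjusted p = 0.997), a comparison in which 0% of genes were called. Without that rat the fish oil side difference was -0.32 and the difference between the diets -1.31. The 5 libraries highest in Ptges included 4 of the 5 highest in the 3 injury genes, and the 4 SOD-CT and FOD-CT libraries with the most muscle transcripts held 0.857 to 2.67 CPM. The part of muscle in the sham values was not tested.

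Ptges3, a co-chaperone of Hsp90 that also makes prostaglandin E2, ran from 207 to 472 CPM, the smallest ratio of the highest to the lowest library in the set (2.28). It was 472, 259, 251 and 424 CPM in SOD-CT and 342, 237 and 218 in SOD-CCI, and 207, 371 and 291 CPM in FOD-CT and 332, 463, 384 and 326 in FOD-CCI. The log2 fold change of CCI against sham was -0.40 ± 0.29 on soy oil and 0.38 ± 0.29 on fish oil (SE), with adjusted p of 0.538 and 1.00, and the groups overlapped on both diets. The interaction was 0.78 ± 0.41 (SE, 95% interval -0.10 to 1.66, adjusted p = 0.894), and fish oil against soy oil after CCI was 0.51 ± 0.29 (SE, adjusted p = 0.859). Without the library labelled FOD-CCI 1 the fish oil response was 0.43, the interaction 0.83 and the diet difference 0.57. The sides of a rat differed in opposite directions on the 2 diets. The left DRG was below the contralateral DRG in 3 of 3 soy oil rats, at 0.724, 0.959 and 0.906 of it, and above it in 3 of 3 fish oil rats, at 1.22, 1.28 and 1.17 times. Over all tested genes, 2.42% had all 3 rats of each diet in 1 direction and the diets opposed. The fitted difference between the side effects was 0.44 ± 0.26 (SE, 95% interval -0.16 to 1.03, adjusted p = 0.997), and also 0.44 without the rat of the library labelled FOD-CCI 1. The related gene Ptges3l1 had 1 to 106 counts per library and 3 further models annotated by similarity to Ptges3 had none, so reads that fit several copies were few or were not counted.

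**Figure D3:**
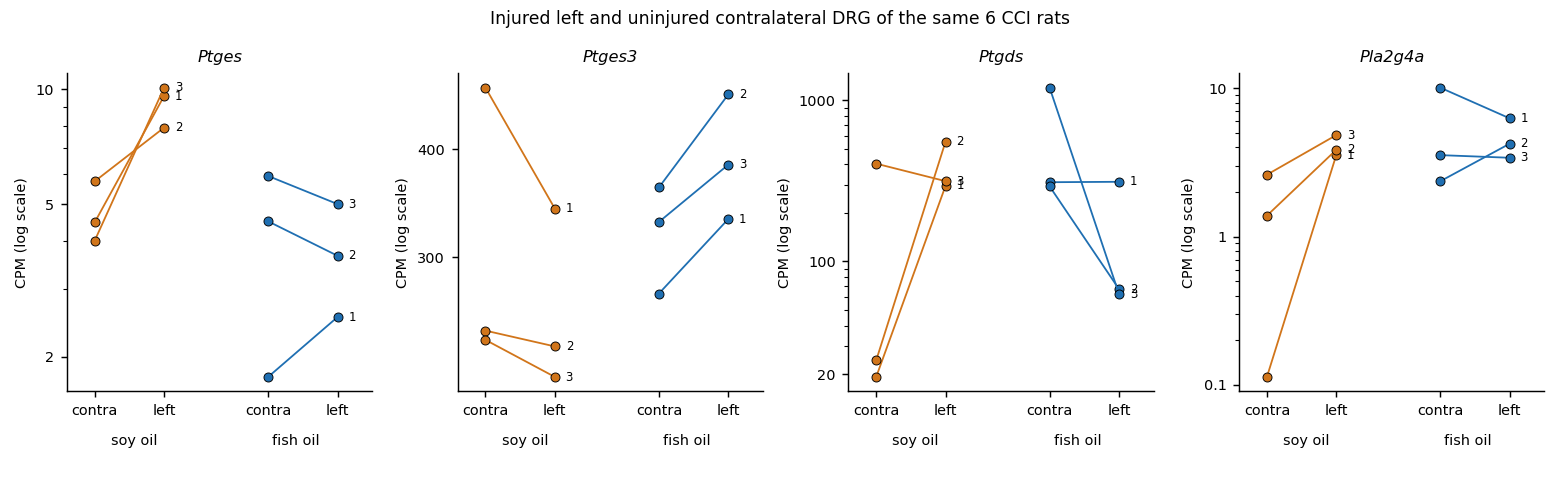
CPM on a log scale (vertical axis) of Ptges, Ptges3, Ptgds and Pla2g4a in the contralateral and left DRG, with a line for each of the 3 soy oil and 3 fish oil rats, numbered by replicate. Ptges and Pla2g4a lines go up to the left DRG in all soy oil rats, Ptges3 lines go down on soy oil and up on fish oil, and Ptgds goes up in 2 soy oil rats and down in 2 fish oil rats.

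Ptgds, the lipocalin-type prostaglandin D2 synthase, which is made in quantity by the leptomeninges around the central nervous system and nerve roots, varied 93.2-fold between libraries, and its 4 left groups overlapped. Its CPM was 28.1, 459, 1793 and 122 in SOD-CT, 295, 554 and 315 in SOD-CCI, 1077, 106 and 619 in FOD-CT, and 312, 67.4, 62.9 and 1739.7 in FOD-CCI. The SD was as large as the mean in SOD-CT (601 ± 816) and FOD-CCI (546 ± 805). Contralateral values were 19.2, 24.4 and 404 CPM on soy oil and 310, 292 and 1196 on fish oil. The left DRG was above the contralateral DRG by 15.3 and 22.7 times in 2 soy oil rats and at 0.779 of it in the other one, and on fish oil at 1.01, 0.231 and 0.0526 of it. The log2 side difference was 2.97 ± 1.18 (SE, adjusted p = 0.520) on soy oil and -2.16 ± 1.06 (SE, adjusted p = 0.736) on fish oil, and their difference was -5.13 ± 1.59 (SE, 95% interval -8.72 to -1.53, adjusted p = 0.997). Single rats moved these values: the soy oil difference was 1.81 without rat 2 and 4.22 without rat 3, and the fish oil difference was -3.23 without the rat of the library labelled FOD-CCI 1 and -1.07 without rat 3. The difference between the diets was -6.20 without the rat of the library labelled FOD-CCI 1 and ran from -6.37 to -3.95 over the 6 rats left out in turn. Before adjustment 2.91% of all tested genes had a p under 0.05 there.

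The 6 leptomeningeal markers moved with these values. Their mean log2 CPM ran from 0.35 to 4.60 in SOD-CT, 0.88 to 3.19 in SOD-CCI, -0.08 to 3.56 in FOD-CT, -0.63 to 4.66 in FOD-CCI, -2.21 to 2.42 in SOD contralateral and 0.98 to 3.73 in FOD contralateral DRG. All 6 had a median above 1 CPM, with Slc22a6 at 0 in 7 libraries and Slc47a1 in 5. Of the 5 libraries highest in Ptgds, 4 were among the 5 highest in this list, and the Spearman correlation over the 20 libraries, which include both sides of 6 rats, was 0.91. The part of this sheath tissue in the Ptgds differences was not tested.

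**Figure D4:**
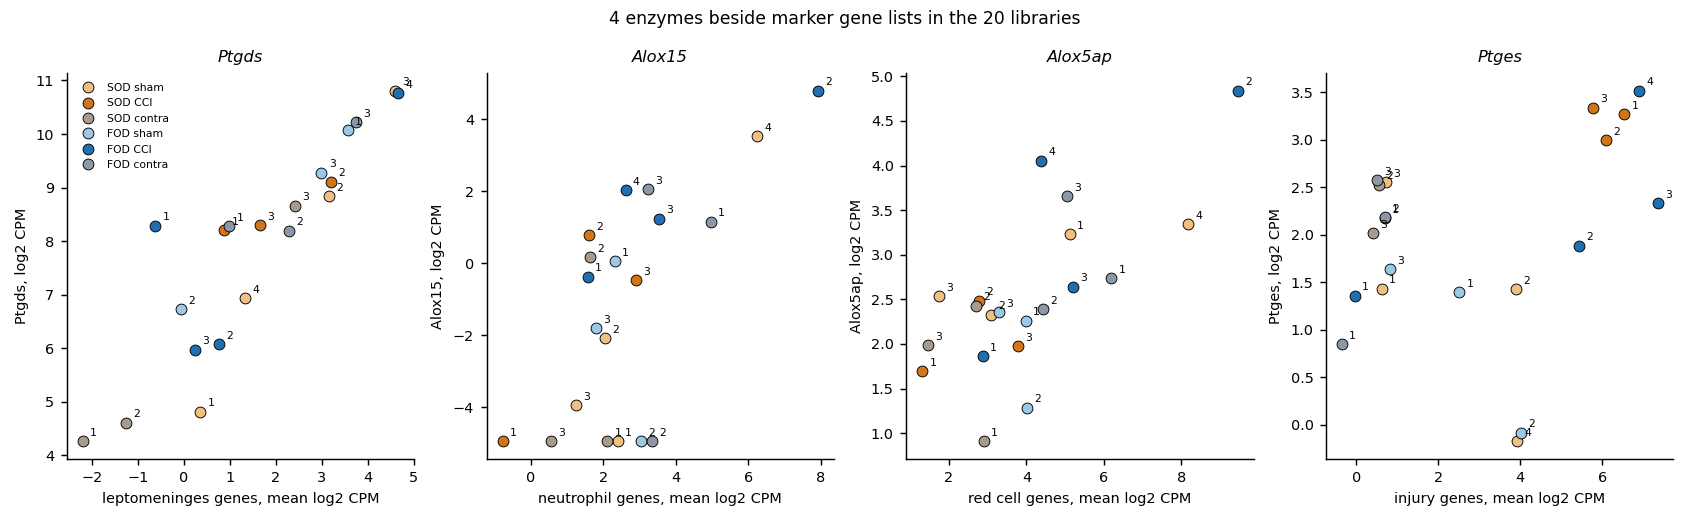
Log2 CPM of Ptgds, Alox15, Alox5ap and Ptges (vertical axes) against the mean log2 CPM of leptomeningeal, neutrophil, red cell and injury genes (horizontal axes) in the 20 libraries, coloured by group and numbered by replicate; libraries with no Alox15 count lie on the lowest line. Ptgds is higher where the leptomeningeal genes are, across groups, Alox15 and Alox5ap are highest in FOD-CCI 2, which is also highest in neutrophil and red cell genes, and Ptges is highest in SOD-CCI libraries and FOD-CCI 4, all high in injury genes.

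Alox5, Alox5ap and Alox15 had their highest group means in the left DRG of FOD-CCI rats, where FOD-CCI 2 and FOD-CCI 4 stood above the other 2 libraries. Without FOD-CCI 2 the FOD-CCI means of Alox5 and Alox15 (2.0 and 2.36 CPM) were below those of SOD-CT (2.87 and 2.94), and that of Alox5ap (8.79) was above (7.56). SOD-CT here kept SOD-CT 4, also rich in neutrophil and red cell markers. Alox15 was at 11.5 CPM in that library, beside 0 to 0.205 in the rest of SOD-CT, whose median was 0.118. FOD-CCI and SOD-CT differ in both diet and injury. Alox5ap, whose product hands arachidonic acid to 5-lipoxygenase, was at 3.60, 28.6, 6.21 and 16.6 CPM in FOD-CCI and at 4.75, 2.40 and 5.09 CPM in FOD-CT. On soy oil the order was the other way round, with 9.34, 4.99, 5.77 and 10.1 CPM in SOD-CT and 3.20, 5.57 and 3.90 in SOD-CCI. Both pairs of groups overlapped. CCI against sham gave a log2 fold change of 1.76 ± 0.62 on fish oil (SE, 95% interval 0.42 to 3.11, adjusted p = 1.00) and -0.83 ± 0.61 on soy oil (SE, adjusted p = 0.546). The interaction was 2.59 ± 0.87 (SE, 95% interval 0.73 to 4.46, adjusted p = 0.894), and fish oil against soy oil after CCI gave 1.72 ± 0.62 (SE, 95% interval 0.38 to 3.06, adjusted p = 0.859). Leaving out FOD-CCI 2 brought the fish oil response to 1.12, the diet difference to 1.08 and the interaction to 1.95. Leaving out the library labelled FOD-CCI 1 brought them to 2.08, 2.04 and 2.91, with adjusted p of 0.172, 0.960 and 0.693, and the Alox5ap range of FOD-CCI then lay above those of FOD-CT and SOD-CCI, as the ranges of 17.3% and 22.2% of all genes were apart.

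The side comparison of Alox5ap within rats did not show this pattern. FOD-CCI 4, the library second highest in Alox5ap, has no contralateral library and did not enter it. The left DRG stood at 1.73, 1.04 and 0.992 times the contralateral DRG on soy oil, and at 0.544, 5.48 and 0.49 times on fish oil, lower in 2 of 3 rats. The log2 side difference was 0.30 ± 0.65 on soy oil and 0.031 ± 0.73 on fish oil (SE, adjusted p = 0.947 and 0.995), and the latter was -1.01 without the rat of FOD-CCI 2. Their difference was -0.27 ± 0.97 (SE, 95% interval -2.46 to 1.92), opposite in sign to the interaction over left libraries, and 0.37 without the rat of the library labelled FOD-CCI 1.

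In the contralateral DRG Alox5ap was 1.85, 5.35 and 3.93 CPM on soy oil and 6.63, 5.22 and 12.6 CPM on fish oil, and the latter lay above all FOD-CT libraries. The ranges of 9.06% of all tested genes were apart in this comparison, and on soy oil, where those of 8.67% were, no enzyme of the set was apart. The log2 difference between contralateral and sham DRG on fish oil was 1.03 ± 0.55 (SE, adjusted p = 1.00), and that between the diets in contralateral DRG was 1.21 ± 0.56 (SE, 95% interval 0.01 to 2.41, adjusted p = 0.697). FOD contralateral 3 carried much of both, which were 0.56 and 0.70 without it. Blood cell markers were apart in the same direction. The neutrophil list ran from 3.22 to 4.97 in FOD contralateral, 1.79 to 3.05 in FOD-CT and 0.56 to 2.11 in SOD contralateral DRG, and the red cell list from 4.42 to 6.19, 3.29 to 4.02 and 1.45 to 2.90. Their part in these differences was not tested.

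Alox5, the 5-lipoxygenase, was at 3.27, 2.86, 0.972 and 4.40 CPM in SOD-CT, 0.431, 1.18 and 1.47 in SOD-CCI, 0, 0.273 and 1.12 in FOD-CT, and 0.588, 10.2, 0.603 and 4.81 in FOD-CCI. Alox15, which makes 12- and 15-hydroxylated products and precursors of pro-resolving lipids, was at 0, 0.205, 0.0324 and 11.5 CPM in SOD-CT, 0, 1.68 and 0.688 in SOD-CCI, 1.00, 0 and 0.255 in FOD-CT, and 0.735, 27.6, 2.32 and 4.03 in FOD-CCI. Both genes had their highest values in FOD-CCI 2, and SOD-CT 4 was second for Alox15 and behind only FOD-CCI 2 and FOD-CCI 4 for Alox5. FOD-CCI 2 and SOD-CT 4 together held 65.9% of all Alox15 counts, 39.7% of Alox5 counts and 25.9% of Alox5ap counts in the 20 libraries. Exact two-sided permutation tests of log2 CPM for CCI against sham on fish oil gave p = 0.171 for Alox5 and p = 0.114 for Alox15, and the smallest p possible was 0.0571. On soy oil the exact p was 0.171 and 0.914. On the 4 genes with few counts 24 such tests were run with no adjustment. Of these, 16 used all libraries and 8 left out the library labelled FOD-CCI 1. With the smaller 1-sided p doubled, as here, none of these designs can reach 0.05. Without the library labelled FOD-CCI 1, Alox15 in FOD-CCI lay above all FOD-CT and SOD-CCI libraries (exact permutation p = 0.1 for each, the smallest that 3 against 3 allow). The ranges of 17.3% and 22.2% of all tested genes, which do not include Alox15, were apart there.

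The same 2 libraries held the most neutrophil and red cell transcripts. The mean log2 CPM of the 5 neutrophil markers was 7.92 in FOD-CCI 2 and 6.25 in SOD-CT 4, against a median of 2.36 over the 20 libraries, and that of the 3 red cell markers was 9.45 and 8.17, against a median of 3.88. By group the neutrophil list ran from 1.24 to 6.25 in SOD-CT, -0.79 to 2.89 in SOD-CCI, 1.79 to 3.05 in FOD-CT and 1.57 to 7.92 in FOD-CCI. All 5 neutrophil and all 3 red cell markers had medians above 1 CPM, and Mpo was at 0 in 2 libraries. The mast cell list was also highest in these 2 libraries, at 1.25 and 1.36, although 5 of its 7 genes had medians under 1 CPM. The lymphocyte list, whose 4 genes all had medians under 1 CPM, was 1.61 in FOD-CCI 2, 0.50 in FOD-CCI 4 and -1.85 in SOD-CT 4. Over the 20 libraries its Spearman correlation with Alox15 was 0.73, that of the macrophage list 0.68 and that of the neutrophil list 0.53. Macrophage markers were highest in FOD-CCI 4 (5.11), the library second for Alox5 and Alox5ap. Without FOD-CCI 2 and SOD-CT 4, 0 members were called in the left DRG, as with them. In that setting 0 of all 14750 tested genes were called in each comparison, so the count of members says nothing about these cells. The part of blood and macrophage cells in the lipoxygenase values was not tested.

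Ltc4s, the enzyme that conjugates leukotriene A4 with glutathione, had low levels that were higher in every FOD-CCI than in every FOD-CT library. It was at 1.69, 2.32, 1.79 and 3.08 CPM in FOD-CCI and 1.37, 0.334 and 0.764 in FOD-CT. These ranges were apart, as were those of 4.59% of all tested genes, which do not include Ltc4s. The exact two-sided permutation p was 0.0571, the smallest possible. Without the library labelled FOD-CCI 1 it was 0.1, the smallest that 3 against 3 allow. The ranges then stayed apart, as were those of 17.3% of all tested genes. On soy oil Ltc4s was 1.44, 1.87 and 0.459 CPM in SOD-CCI and 0, 1.02, 0.194 and 0 in SOD-CT, which overlap (exact permutation p = 0.114). In the contralateral DRG it was 0.302, 0 and 1.10 CPM on soy oil and 0, 0.407 and 1.17 on fish oil, and the left DRG exceeded it in 2 of 3 and 3 of 3 rats. On fish oil 23.8% of all tested genes, which do not include Ltc4s, had 3 rats in 1 direction. The highest Ltc4s value, like the highest macrophage list, was in FOD-CCI 4, and 4 of the 5 libraries highest in Ltc4s were among the 5 highest in macrophage markers, whose group means were 2.63 in SOD-CT, 3.67 in SOD-CCI, 2.90 in FOD-CT and 4.09 in FOD-CCI. Of the same 5 libraries highest in Ltc4s, 4 were also among the 5 highest in lymphocyte markers. The part of these cells in the Ltc4s difference was not tested.

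Other genes of the pathway were seldom called. Of 57 listed genes for phospholipases, prostanoid and leukotriene synthases, glutathione-dependent and epoxide enzymes and breakdown, 56 were found and 32 could be tested in the left DRG. None was called there. For CCI against sham on soy oil 11 of the 32 had a positive and 21 a negative log2 fold change, and 4 and 1 of these had a p under 0.05 before adjustment (13.8% of all genes). On fish oil 16 were positive and 16 negative, 3 and 1 of them with a p under 0.05 (4.52% of all). For fish oil against soy oil after CCI 20 were positive and 12 negative, 1 and 0 of them with a p under 0.05 (5.4% of all). The medians of the list were -0.21, -0.012 and 0.14 on the log2 scale, beside -0.0090, 0.0065 and 0.043 over all genes. Lta4h, which makes leukotriene B4, was at 44.3 ± 6.47 CPM in SOD-CT, 37.1 ± 6.06 in SOD-CCI, 33.1 ± 1.45 in FOD-CT and 42.3 ± 14.2 in FOD-CCI (SD). The membrane synthase Ptges2 was at 35.4 ± 23.7, 31.4 ± 5.51, 40.8 ± 9.41 and 37.4 ± 12.0 CPM in the same order. The calcium-independent phospholipase Pla2g6 had a log2 fold change of -0.45 ± 0.22 for fish oil against soy oil after CCI (SE, adjusted p = 0.859). Ptgis, the prostacyclin synthase, had -1.31 ± 0.79 for CCI against sham on soy oil and 0.36 ± 0.76 on fish oil (SE, adjusted p = 0.464 and 1.00). The epoxide hydrolase Ephx2 had -0.82 ± 0.88 and 0.49 ± 0.87 (SE, adjusted p = 0.693 and 1.00).

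Tbxas1, Hpgds and Hpgd, for thromboxane, hematopoietic prostaglandin D2 synthesis and prostaglandin breakdown, had too few counts to be tested. Their CPM means reached at most 5.67, 1.38 and 0.37 in any group. The 1 other pathway gene called was Pla2g7, the secreted phospholipase that degrades platelet-activating factor. It was lower in the left than in the contralateral DRG on soy oil, with 27.0, 16.3 and 13.4 CPM against 105.6, 76.5 and 74.9 (log2 difference -2.20 ± 0.27, SE, adjusted p = 0.0449), 1 of the 0.131% of genes called there. It was not called without the rat block (-2.16, adjusted p = 0.782) or without any 1 of the 3 soy oil rats (-2.33 to -2.10, adjusted p from 0.396 to 0.723). On fish oil the values were 147.6, 22.3 and 19.4 against 246.1, 72.1 and 83.1 CPM, a difference of -1.56 ± 0.27 (SE, adjusted p = 0.366), and that between the 2 diets was 0.64 ± 0.38 (SE, adjusted p = 0.997).

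Over the 14 left libraries the genes most like each tested enzyme in log2 CPM, by Spearman's rho and as a description, were Rspo2, Medag and Grk5 for Ptges (0.90, 0.90 and 0.89), Vtn, Zbtb7c and Zfp704 for Ptgds (0.96, 0.95 and 0.94), and Prkd3, Plac8 and Gmfg for Alox5ap (0.89 each). For Pla2g4a they were Rin2, Retsat and Pltp (0.90 each), for Ptgs1 Dnajb11, Ncapg2 and Fam221a (0.91, 0.90 and 0.85), and for Ptges3 Mrpl41, Msantd4 and Ube2e1 (0.97, 0.96 and 0.94). The libraries share one normalization and their differing tissue content.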

How the data were processed

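RNA from whole DRG was sequenced as poly-A libraries. Per the labels and the study's methods the authors used fastp for trimming, HISAT2 for alignment and featureCounts 1.5.0-p3 for counting per gene. The genome build and the strand setting are not given in the sources used here. The deposited count table holds whole-number read counts per gene for 20 libraries, and a second deposited table holds FPKM values. The FPKM were found to be scaled by DESeq2-type size factors rather than library totals. CPM were computed from the counts with TMM factors over all libraries, which rescale each library total. A smaller factor gives a higher CPM. In SOD-CT 1, the library with the most muscle transcripts, the factor was 0.658. Ptges3 there was 472 CPM, against 310 with the unscaled total, and Alox5ap was 9.34 against 6.14. The factor was 0.960 in FOD-CT 2, also rich in muscle transcripts. In SOD-CT 4 and FOD-CCI 2, rich in neutrophil and red cell markers, it was 0.975 and 0.997.

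Genes with at least 10 counts in 90% of the libraries of a fit were tested with edgeR 4.0.16 (R 4.3.3, quasi-likelihood, Benjamini-Hochberg adjustment over all tested genes, thresholds for a call 0.1 for the adjusted p and 1.2 for the fold change). There were 3 fits: 14 left libraries (14484 genes), 12 libraries of 6 CCI rats with the rat as block (14549 genes), and 13 contralateral and sham libraries (14007 genes). The study used DESeq2 with this filter and these thresholds, run here as an alternative with version 1.42.0. Each SE is the log2 fold change divided by the square root of F. Simulated 4-fold and 16-fold changes for SOD-CCI against SOD-CT, over 14484 genes, were called for 71 and 97 of 100 genes. Of the 181 calls 13 were wrong. The simulated counts were drawn independently, with no tissue content shared between genes, and the measured comparison gave 0 calls. These shares are therefore not a detection rate for the measured libraries. The limits given for genes without a count (3 counts over the group) cover counting error only. Exact permutation tests of log2 CPM (prior count 1) used SciPy 1.17.1 and doubled the smaller 1-sided p, which sets the smallest p given for them.

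Libraries of a group come from different rats. The left and contralateral DRG of a rat share its number in the library names, and their deviations from group means correlated at 0.13 to 0.42. By replicate number FOD-CT also correlated with FOD-CCI (0.42, 0.23 and 0.18) and with FOD contralateral libraries (0.58, 0.16 and 0.22). No label gives a reason, and other groups did not pair. Replicate 1 of each of these groups is the library with spinal cord glia transcripts (6.96, 7.37 and 7.42 as mean log2 CPM). The group means behind all these deviations include it. Its part in these correlations was not tested.

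The members and gene lists were chosen with earlier results of these data known. Named were all 10 members, 8 pathway genes by role (Lta4h, Tbxas1, Hpgds, Ptgis, Ptges2, Hpgd, Pla2g6, Ephx2), any called pathway gene, the 3 genes most like each tested member, and Atf3, Gal and Sprr1a. Cyp4f5 and the fibroblast marker Col1a2 were not matched. Lists for other tissues held macrophage, mast cell, neutrophil, lymphocyte, red cell, leptomeningeal, fibroblast, endothelial, spinal cord glia, muscle, neuron, satellite glia and Schwann cell markers. Alternatives changed the normalization, filter, tool, block, samples of the fit and libraries.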

Additional observations from a re-analysis of the deposited data

Results flagged for a closer look

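Alox15 had a library far from the other 3 of its group in both groups of 4: FOD-CCI 2 at 27.6 CPM, beside 0.735 to 4.03, and SOD-CT 4 at 11.5 CPM, beside 0 to 0.205. Ptgds in FOD-CCI 4 stood at 1739.7 CPM, beside 62.9 to 312 in the rest of the group. These are 3 of 20 gene and group pairs tested by Dixon's ratio. Its rate of about 1 in 20 by chance holds for independent, normally distributed values. These CPM are skewed, some are 0 and the genes share libraries, so the 3 cannot be read as an excess.

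Between the diets, the response of Alox5ap to CCI differed by 2.59 on the log2 scale (SE 0.87, 95% interval 0.73 to 4.46), with CCI above sham on fish oil and below it on soy oil. Its interval excludes 0, and it fails the adjustment over all genes (adjusted p = 0.894). With the contralateral DRG in place of sham, the difference between the diets was -0.27 (SE 0.97), of the opposite sign. It was 0.37 without the rat of the library labelled FOD-CCI 1. FOD-CCI 4, second highest in Alox5ap, has no contralateral library and did not enter. The difference between left and contralateral DRG of Ptgds differed between the diets by -5.13 (SE 1.59, 95% interval -8.72 to -1.53), with 2 of 3 soy oil rats higher on the left and 2 of 3 fish oil rats lower, and it fails the adjustment too (adjusted p = 0.997). Ptges3 was lower on the left in 3 of 3 soy oil rats and higher in 3 of 3 fish oil rats, and the fitted difference of 0.44 (SE 0.26) had an adjusted p of 0.997.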

How the results depend on the processing

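The count of members called stayed at 0 in 198 of 199 recomputations, among them DESeq2 fits that gave some members no adjusted p. The exception was DESeq2, which called 1 (Pla2g4a, 2.16, adjusted p = 0.0851) for SOD-CCI against its contralateral DRG. In most edgeR recomputations of the left and the contralateral against sham comparisons no gene was called, so 0 members was the only possible count there. With the replicate number as a block, 0 members were called in each comparison. At most 1 of 14484 genes was called there in the left DRG and 0 of 14007 for contralateral and sham DRG. Without the rat block 0 members were called in the side comparisons, as were 0 of 14549 genes. The sign of the 29 printed log2 fold changes held in 484 of 496 recomputations. Some values not printed reversed more often. Ptgds did so in 6 of 22 for CCI against sham on fish oil, and Ptgs1 in 10 of 19 for FOD contralateral against FOD-CT. One setting left out SOD-CT 1, with the most muscle transcripts, and FOD-CT 1 and FOD-CCI 1, with spinal cord transcripts. Ptgs1 for CCI against sham on soy oil was then -0.018 and the Ptges interaction 0.16. That setting kept FOD-CT 2 and SOD-CT 4, where muscle markers stood at 10.9 and 8.45. Without SOD-CT 4 and FOD-CCI 2, an alternative chosen after seeing the data, that interaction was 0.22. With 1 library left out in turn, the Ptges interaction ran from -0.88 to 0.061, the Ptges side difference on fish oil from -0.32 to 0.084, Ptgs1 on soy oil from -0.019 to 0.55, the Alox5ap side difference on fish oil from -1.01 to 0.79, and its difference between the diets from -1.30 to 0.49 (0.42 without the rat block). The cause was not tested.

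Over all genes the number of calls depended on the tool and on single libraries. For CCI against sham edgeR called 0 genes on soy oil and 0 on fish oil, DESeq2 594 and 21, and edgeR without the library labelled FOD-CCI 1 called 47 and 43. Without SOD-CT 1, FOD-CT 1 and FOD-CCI 1 it called 200 and 526. For the left against the contralateral DRG edgeR called 19 on soy oil and 2 on fish oil, DESeq2 472 and 264, and edgeR without the rat of the library labelled FOD-CCI 1 called 471 and 137. With no filter on low counts edgeR called 220 and 61. Depth limits Ptgs2, Ltc4s, Alox5 and Alox15, which no main fit holds. With no filter, all 4 were tested and none was called, and in the left DRG 0 of 28168 genes were called in each comparison.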
